A study of Mus musculus with 2 samples.

Results

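The synaptotagmins are a gene family of membrane-linked proteins with paired C2 domains, modules that in many members bind calcium and phospholipid. The 10 members described here were chosen by symbol, with earlier results of these data known: Syt1, Syt2, Syt3, Syt4, Syt5, Syt7, Syt11, Syt13, Syt16 and Syt17. They are 10 of the 32531 gene symbols counted, and the 7 other numbered synaptotagmins (Syt6, Syt8, Syt9, Syt10, Syt12, Syt14 and Syt15) are given beside them. RNA was taken from the dentate gyrus of adult, untreated Lypd1-EGFP/Rpl10a mice of line OI82. These mice carry an EGFP-tagged copy of the ribosomal protein Rpl10a, expressed under the regulatory sequence of Lypd1, so that an antibody to EGFP pulls down the ribosomes, and the messages on them, of the cells that express the tag (translating ribosome affinity purification, TRAP). Any dentate gyrus cell in which the transgene was active can contribute, while the endogenous Rpl10a present in all cells carries no tag. The series holds no input library, so RNA carried over from other cells cannot be measured. The series has 1 group, with 2 pull-down libraries, replicate 2 and replicate 1, and the labels do not say whether these came from separate or pooled mice.

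Synaptotagmins 1 and 2 are the calcium sensors of fast, synchronous transmitter release. Calcium entry at the presynaptic terminal lets them act on SNARE proteins and membrane, and docked vesicles fuse. Synaptotagmin 7 responds to lower calcium and serves slower release and facilitation, a property for which the mossy fibre synapses of dentate granule cells are known. Other members lack calcium-binding residues or act away from the synaptic vesicle cycle, on dense-core vesicles, endosomes or postsynaptic receptors.

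Replicate 2 held 32711412 counts on gene lines and replicate 1 held 31309643. A level is the number of counts per 1000000 counts on gene lines (CPM). Where genes are set against each other, the level is CPM per kilobase (kb) of merged exon sequence, since a longer message collects more reads. Granule cell markers (Prox1, Calb1, Stxbp6, Sema5a and Dsp) were all detected, that is at 1 CPM or more in each library, with summed levels of 3456 CPM in replicate 2, against 3457 CPM in replicate 1. Of the defining markers of other cells, none of the 4 microglial genes was detected. C1qa and C1qb were at 0 counts in both libraries, Cx3cr1 had 12 counts in replicate 2 and 22 in replicate 1, and Csf1r had 20 and 33. Of the GABAergic list, 6 of 9 markers were detected, with sums of 257 and 246 CPM. With 1 group, no test between conditions exists and no p-value is given. Replicates are described by both values, and the difference between them compares these libraries only. In bulk RNA such as this, fewer cells of a type and less RNA per cell cannot be told apart.

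Of the 10 members, 9 were counted at 1 CPM or more in each library, a level that 38.1% of all gene symbols reached. The same 9 stood at 10 CPM or more in each library, against 24.6% of all symbols. Levels of 100 CPM or more in each were found for Syt1, Syt7, Syt11 and Syt13, against 6.03% of all symbols. The member below the threshold was Syt2. The median level of the 10 members was 95.8 CPM, beside 22.5 CPM over the 12402 genes detected and 1.40 CPM over the 7 other synaptotagmins. Per kb of exon, the member median was 27.2, beside 5.18 for detected genes. Since the 10 were chosen with earlier results of these data known, these contrasts may partly reflect that choice and are a description only.

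**Figure D1:**
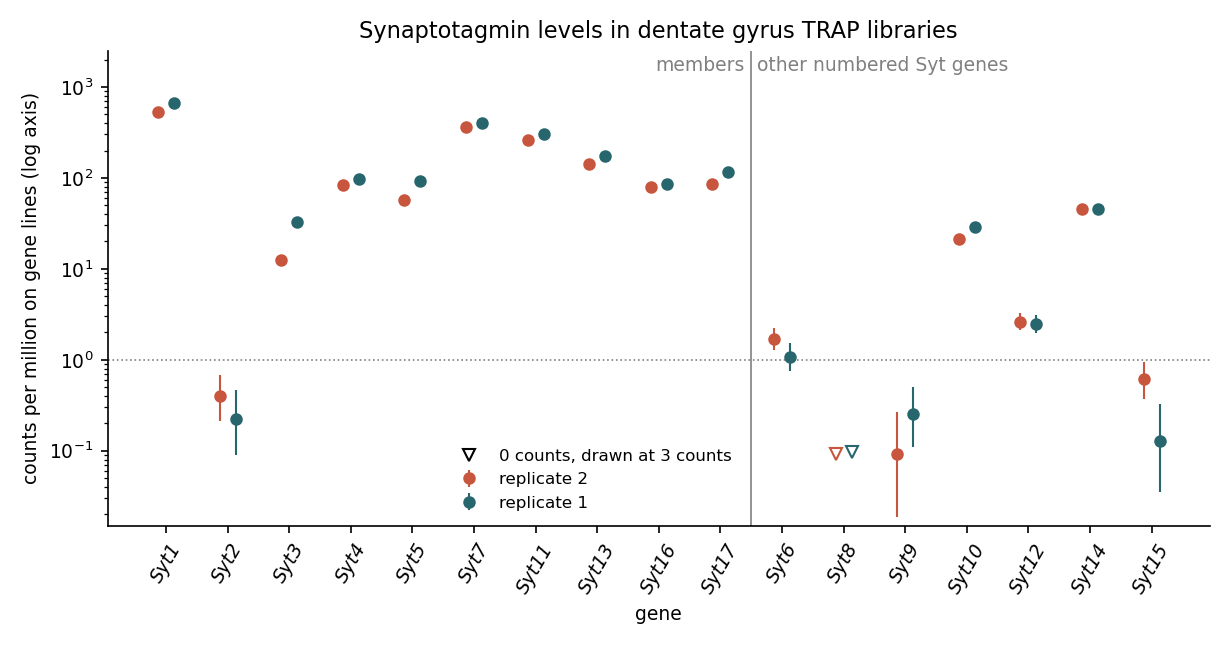
Levels of the 17 numbered synaptotagmins in CPM (vertical log axis), with replicate 2 left of replicate 1 for each gene. Bars are exact 95% Poisson intervals, which cover counting error only, triangles mark 0 counts drawn at the level of 3 counts, and the dotted line is a CPM of 1. Apart from Syt2, each member lies above 10 CPM in both libraries, and among the other genes Syt10 and Syt14 do.

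Among the fast calcium sensors, Syt1 was abundant and Syt2 was close to absent. Syt1, on chromosome 10 (108497650 to 109010982, minus strand, GRCm38), had 17514 counts in replicate 2 and 20753 in replicate 1, or 535 and 663 CPM. Its mean of 599 ± 90.1 CPM (SD, n = 2) ranked 205 of all symbols. That rank, like those given below, is by CPM and not corrected for length. Corrected for exon length, Syt1 lay at percentile 97.4 of the 16212 genes with a count and a known exon length. Its levels per kb of exon were 64.2 and 79.5, above both values of every other member. Syt2, which serves fast release mainly in hindbrain, spinal and parvalbumin interneuron synapses, lies on chromosome 1 (134646677 to 134762593, plus strand). It had 13 counts in replicate 2 and 7 in replicate 1, or 0.397 CPM (exact 95% Poisson interval 0.212 to 0.680) and 0.224 CPM (0.0899 to 0.461). The 2 intervals overlap. Per kb of exon, Syt1 stood 1234 times above Syt2 in replicate 2 (95% counting interval 722 to 2318) and 2716 times in replicate 1 (1318 to 6756).

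Of genes known from fast-spiking interneurons, where Syt2 is typical, Pvalb, the calcium buffer that defines these cells, had 10 counts in replicate 2 and 3 in replicate 1. The other genes of that list were not low. Cplx1, a complexin that clamps and promotes fusion, was at 201 CPM in replicate 2, against 267 CPM in replicate 1. The potassium channel gene Kcnc1 was at 99.2 and 125 CPM, and the vesicle SNARE gene Vamp1 at 27.4 and 34.6 CPM. Over the 4 genes the sums were 328 and 426 CPM. The third fast sensor, Syt9, had 3 counts in replicate 2 and 8 in replicate 1, so that of the fast sensors Syt1 alone was detected.

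The start regions of Syt1 and Syt2 are shown because these close relatives stood at the top and the bottom of the members. Each is the RefSeq window farthest upstream for its gene, from 250 bases before to 50 after the annotated start, 5′ to 3′ on the strand of the gene, with CG dinucleotides in capitals. The Syt1 window is chr10:109010926-109011225 (GRCm38.p6, minus strand) and the Syt2 window is chr1:134646362-134646661 (GRCm38.p6, plus strand).
Syt1: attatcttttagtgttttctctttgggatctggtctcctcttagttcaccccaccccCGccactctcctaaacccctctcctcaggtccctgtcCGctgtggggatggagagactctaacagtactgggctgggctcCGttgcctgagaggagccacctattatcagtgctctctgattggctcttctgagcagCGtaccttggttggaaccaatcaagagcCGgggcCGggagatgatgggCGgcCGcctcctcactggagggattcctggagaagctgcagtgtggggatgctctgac
Syt2: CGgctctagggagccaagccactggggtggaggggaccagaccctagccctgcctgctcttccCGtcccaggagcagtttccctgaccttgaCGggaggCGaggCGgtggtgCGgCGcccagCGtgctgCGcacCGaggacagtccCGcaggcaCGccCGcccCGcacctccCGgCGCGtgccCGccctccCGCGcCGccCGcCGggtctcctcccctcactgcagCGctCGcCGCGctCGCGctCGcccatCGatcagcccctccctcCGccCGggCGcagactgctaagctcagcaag
The Syt1 window holds 8 CG dinucleotides and the Syt2 window 34. Over the 32851 windows in the table the median was 7, and 7.73% of windows held 34 or more, against 48.7% with 8 or more. The GC box GGGCGG, on either strand, was found 1 time in the Syt1 window and 4 times in the Syt2 window, and in 35.7% of all windows at least once. The second annotated window held 6 CG for Syt1 and 28 for Syt2. Of this pair, the gene with few counts has the window richer in CG. Of the 10 members, 5 have windows in the table, the others being Syt3 with 17 CG, Syt11 with 14 and Syt16 with 42. These counts describe sequence and were not tied to the levels by any test.

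Among the sensors of high calcium affinity, Syt7 was abundant and Syt3 was much lower. Syt7, on chromosome 19 (10389090 to 10453180, plus strand), had 11866 counts in replicate 2 and 12541 in replicate 1, or 363 and 401 CPM (mean 382 ± 26.7, SD, n = 2, rank 394). Its 15 annotated transcripts are counted together. Corrected for exon length, Syt7 lay at percentile 95.7. Per kb of exon, Syt1 was 1.33 times Syt7 in replicate 2 (95% counting interval 1.29 to 1.36) and 1.49 times in replicate 1 (1.45 to 1.52). Per kb of coding sequence these ratios were 2.43 and 2.73, so the size of the gap depends on the length used. Syt3, which has been linked to removal of AMPA receptors from the postsynaptic membrane, lies on chromosome 7 (44384102 to 44400187, plus strand). It had 410 counts in replicate 2 and 1013 in replicate 1, or 12.5 and 32.4 CPM. On the same per-length scale, Syt7 was 12.1 times Syt3 in replicate 2 (10.9 to 13.3) and 5.16 times in replicate 1 (4.84 to 5.50), intervals that do not overlap. With coding length the ratios were 24.5 and 10.5. Syt5, a calcium-binding member whose name was at times exchanged with that of Syt9, lies on chromosome 7 as well (4539765 to 4547541, minus strand). It was at 56.6 CPM in replicate 2, against 91.8 CPM in replicate 1.

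Syt4 and Syt11 form a pair in which the first C2 domain has lost a calcium-binding residue. Syt11, which restrains endocytosis and whose product is a substrate of parkin, lies on chromosome 3 (88744700 to 88775164, minus strand). It was at 264 CPM in replicate 2, against 301 CPM in replicate 1 (mean 282 ± 26.0, SD, n = 2, rank 607). Corrected for exon length, Syt11 lay at percentile 96.0. Syt4, on chromosome 18, is found on dense-core vesicles and its message rises with depolarisation. It was at 83.0 CPM in replicate 2, against 97.0 CPM in replicate 1 (mean 90.0 ± 9.92). Set per kb of exon, Syt11 was 2.38 times Syt4 in replicate 2 (95% counting interval 2.28 to 2.48) and 2.32 times in replicate 1 (2.22 to 2.42). That ratio had overlapping intervals in the 2 libraries.

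The members that do not bind calcium, or are not known to do so in the manner of Syt1, were all detected. Syt13, on chromosome 2 (92915098 to 92956058, plus strand), lacks the calcium-binding residues and was at 142 CPM in replicate 2, against 173 CPM in replicate 1 (mean 158 ± 22.0, SD, n = 2). Syt17, once called B/K protein and linked to the Golgi and to axon growth, lies on chromosome 7 (118380717 to 118448222, minus strand). It was at 86.2 and 117 CPM. Syt16, a member without a membrane anchor, lies on chromosome 12 (73997661 to 74273267, plus strand) and was at 78.5 and 85.5 CPM, a narrow spread.

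Ordered by mean CPM per kb of exon, the members ran from Syt1 (71.9 ± 10.8, SD, n = 2) through Syt11 (54.2 ± 4.99), Syt7 (51.0 ± 3.57), Syt13 (41.9 ± 5.85), Syt5 (31.2 ± 10.5), Syt4 (23.1 ± 2.55), Syt17 (19.5 ± 4.16), Syt16 (8.97 ± 0.539) and Syt3 (7.20 ± 4.49) to Syt2 (0.0407 ± 0.0161). Neighbours whose library values do not overlap are Syt1 and Syt11, Syt7 and Syt13, Syt17 and Syt16, and Syt3 and Syt2. The other 5 neighbouring pairs overlap across libraries, a comparison that does not pair the values by library. Within each library, Syt11 was above Syt7, Syt13 above Syt5, Syt5 above Syt4 and Syt4 above Syt17. Syt16 was above Syt3 in replicate 2 (8.59 and 4.02) and below it in replicate 1 (9.35 and 10.4). Per kb of coding sequence in place of exon, Syt5 took place 7, below Syt4 and Syt17, and the order of the rest was as before. Syt1 then stood at 424 and 525 against 205 and 233 for Syt11.

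**Figure D2:**
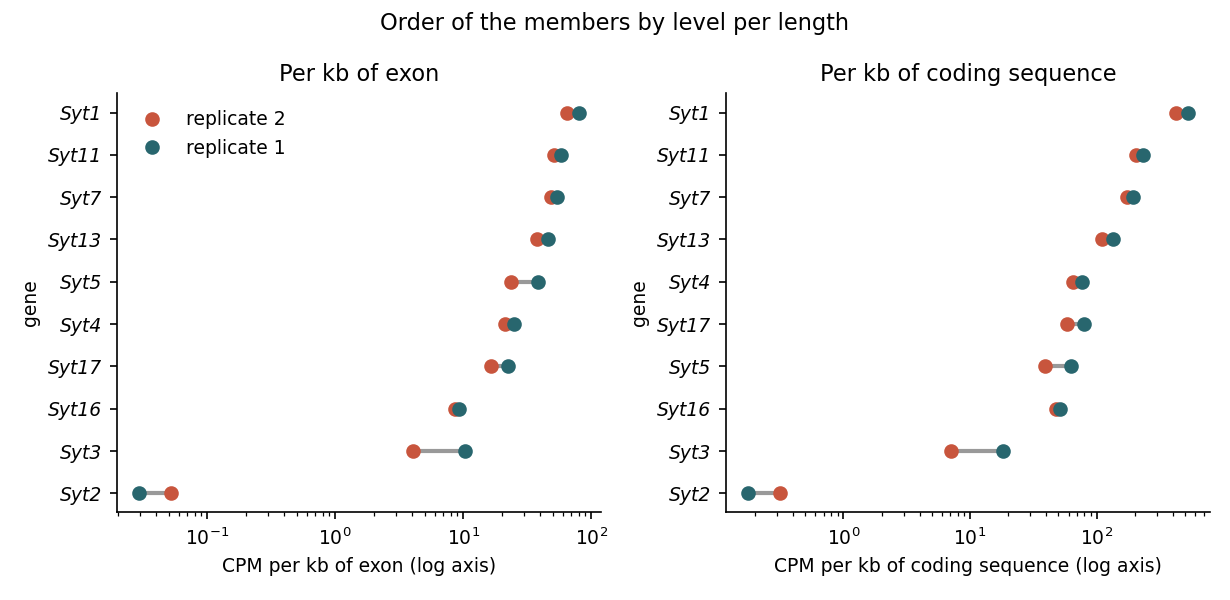
Members ordered by level per length, with CPM per kb of merged exon on the left and per kb of coding sequence on the right (horizontal log axes). Points are the 2 libraries and a line joins them. Syt1 is highest and Syt2 lowest in both panels, and Syt5 moves from place 5 to place 7.

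In the summed level per kb of exon, Syt1 made up 23.3% of the 10 members in replicate 2 and 23.2% in replicate 1. Syt11 made up 18.4% and 16.9%, Syt7 17.6% and 15.6%, and Syt13 13.7% and 13.4%. These 4 genes together made up 73.0% in replicate 2 and 69.1% in replicate 1. Syt3 made up 1.46% and 3.03%, the member with the largest relative shift of share among the 9 detected.

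**Figure D3:**
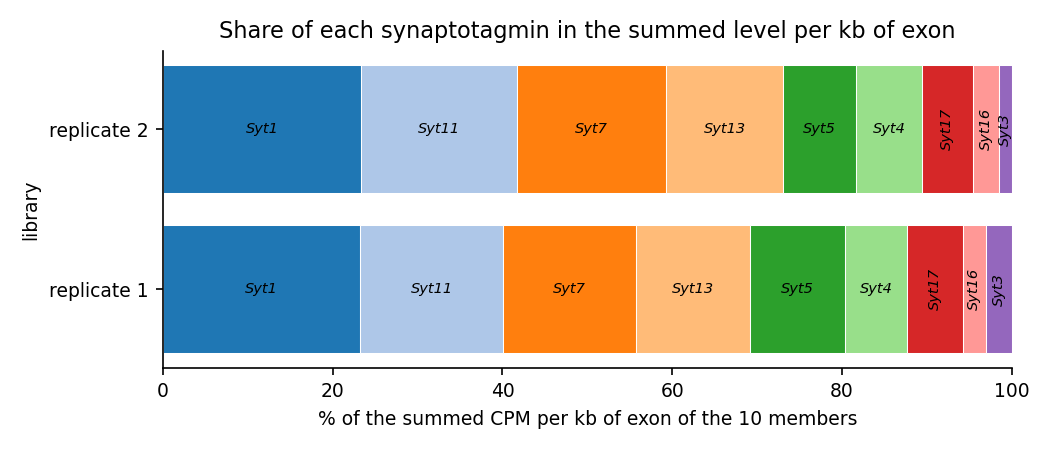
Share of each member in the summed CPM per kb of exon of the 10 members (horizontal axis, %), with replicate 2 above replicate 1. Syt1, Syt11, Syt7 and Syt13 fill 73.0% of replicate 2 and 69.1% of replicate 1, and Syt2 is too small to be seen.

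Of the 7 other numbered synaptotagmins, 2 were well detected. Syt14, a relative of Syt16, had 1481 counts in replicate 2 and 1411 in replicate 1, or 45.3 and 45.1 CPM. Syt10, a calcium sensor of growth factor secretion in olfactory bulb neurons, was at 21.5 and 28.9 CPM. Syt12, a member that does not bind calcium, was at 2.63 and 2.49 CPM and Syt6 at 1.71 and 1.09 CPM. Syt15 had 20 and 4 counts. Syt8 had 0 counts in both libraries. Its exact 95% Poisson interval ran up to 0.113 CPM in replicate 2, against 0.118 CPM in replicate 1, and a floor of 3 counts is 0.0917 and 0.0958 CPM.

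The libraries were compared by the log2 ratio of replicate 2 to replicate 1 on totals scaled by edgeR's TMM method, with a prior count of 2. Of the 9 members whose mean was 10 CPM or more, 1 was past 2-fold, Syt3, beside 3.19% of the 8442 genes at that level. Past 2-fold lower in replicate 2 were 1.01% of those genes. All 9 members had a log2 ratio below 0, beside 47.2% of genes, and with library totals alone again all 9, beside 56.3%, though Syt7 crossed 0 once transcript length and GC content were fitted. The 95% counting interval lay wholly below 0 for 8 of the 9, all but Syt16, beside 36.5% of genes. The median over the 9 was -0.19, beside 0.03 over all genes at that level.

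Syt3 had a log2 ratio of -1.27 (95% counting interval -1.44 to -1.11), and 0.261% of genes whose mean was 10 CPM or more lay lower. Syt5 followed at -0.60 (-0.69 to -0.52), Syt17 at -0.35 (-0.42 to -0.27) and Syt1 at -0.22 (-0.24 to -0.19). The ratios of the remaining 5 lay between -0.19 and -0.03. Syt2 had a ratio of 0.76, with an interval of -0.51 to 2.49 from its 20 counts. Syt3 was therefore the member that differed most, and Syt4, Syt7, Syt11 and Syt16 differed by less than 10% between the libraries on this scale.

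The Syt3 transcript has a GC content of 59.2%, beside a median of 48.5% over genes. Syt5 (55.4%), Syt7 (54.7%) and Syt17 (54.6%) lay close together in GC content, with ratios of -0.60, -0.05 and -0.35. With a fit on transcript length and GC content removed, an alternative chosen after the data were seen, the ratio of Syt3 was -1.04 and that of Syt5 -0.47. The ratio of Syt7 then changed sign to 0.0049, so a lower level of that gene in replicate 2 depends on leaving this fit out. Under the other scalings its ratio stayed negative, at -0.14 with library totals and -0.045 with DESeq2 size factors. Syt13 (-0.17) and Syt17 (-0.25) also moved closer to 0. Syt1 (-0.31), Syt4 (-0.26), Syt11 (-0.13) and Syt16 (-0.16) moved further below 0. The median over the 9 members at 10 CPM or more was -0.25 after the fit, from -0.19 before it. Marker lists of other cells differed between the libraries too. The 4 CA3 and CA1 pyramidal cell markers were all lower in replicate 2, with sums of 88.7 CPM against 117 CPM in replicate 1. The 4 oligodendrocyte markers summed to 119 CPM in replicate 2, against 163 CPM in replicate 1, and the 3 mossy cell markers to 33.8 and 54.6 CPM. Most of the oligodendrocyte sum was Mbp, at 99.3 and 126 CPM. Most of the mossy cell sum was Ajap1, at 32.0 and 50.8 CPM. Calb2 was at 1.44 and 3.55 CPM, while Drd2, with 11 and 8 counts, was higher in replicate 2. Astrocyte markers summed to 440 and 414 CPM, most of it Slc1a2 at 413 and 389 CPM. Gfap was at 12.0 and 7.09 CPM, while Aqp4 was at 14.3 and 16.8 CPM. Of these lists, no marker was at 0 in either library, though Drd2 and the astrocyte gene Aldh1l1 were below 1 CPM in both. Their part in the ratios of Syt3 and Syt5 was not tested.

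**Figure D4:**
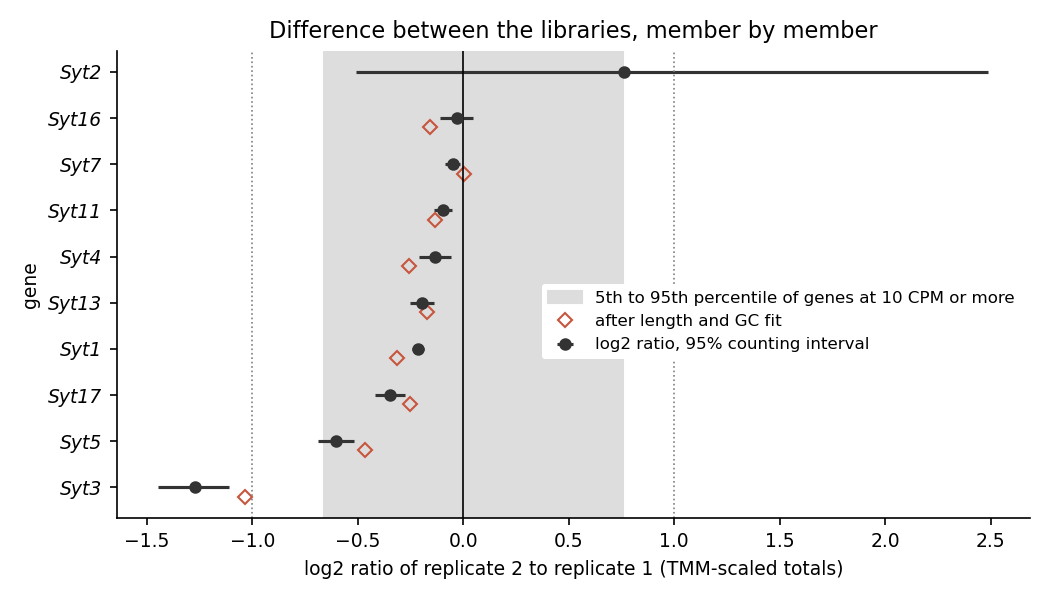
Log2 ratio of replicate 2 to replicate 1 for each member (horizontal axis, TMM-scaled totals) with 95% counting intervals, and open diamonds for the ratio after a fit on transcript length and GC content is removed. The grey band holds the central 90% of genes whose mean was 10 CPM or more and dotted lines mark 2-fold. Syt3 at -1.27 lies outside the band and Syt2, from 20 counts, spans most of it.

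Syt4 and Syt10 are known to be induced by seizures or depolarisation. Some genes switched on by activity, taken from earlier results of these data, stood higher in replicate 2, with Arc at 265 CPM in replicate 2, against 33.2 CPM in replicate 1 and Homer1 at 767 and 151 CPM. The ratio of Syt4 was -0.13 (95% counting interval -0.21 to -0.06) and that of Syt10 -0.34 (-0.48 to -0.19). Both synaptotagmins were thus lower in replicate 2. Any part of activity in these ratios was not tested.

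The partners of synaptotagmins in vesicle fusion were well represented. Of 15 genes, 14 were detected, beside 38.1% of all symbols. Their median was 197 CPM, beside 22.5 CPM over all genes detected. Snap25, the SNARE protein that synaptotagmin 1 binds, was at 12586 CPM in replicate 2, against 12303 CPM in replicate 1. The complexin gene Cplx2 was at 2334 and 3032 CPM and the vesicle SNARE gene Vamp2 at 1304 and 1940 CPM, while Cplx3 had 0 counts. Of the 13 whose mean was 10 CPM or more, 8 had a ratio below 0, beside 47.2% of genes at that level. None was past 2-fold, beside 3.19% of those genes, and the median ratio was -0.12. Of the 8 genes for vesicle proteins and adaptors that bind or sort synaptotagmins, all were detected, beside 38.1% of all symbols. Syn1, a synapsin, was at 716 and 910 CPM, Syp at 587 and 562 CPM, Syn2 at 394 and 402 CPM, and the stonin gene Ston1 was lowest at 3.09 and 2.27 CPM. Their median ratio was 0.06, with 3 of 7 below 0, beside 47.2% of genes whose mean was 10 CPM or more.

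The 7 dense-core vesicle genes, in whose vesicles Syt4 is found, were all detected, beside 38.1% of all symbols. Of the 7, 2 had a ratio below 0, beside 47.2% of genes whose mean was 10 CPM or more, and the median ratio was 0.11. The granin gene Chgb was at 890 CPM in replicate 2, against 500 CPM in replicate 1, and Scg2 at 312 and 211 CPM. Cadps, which primes such vesicles, was at 152 and 150.1 CPM, and Chga was lowest at 20.3 and 10.5 CPM. Chga was the 1 gene of the list past 2-fold, beside 3.19% of genes whose mean was 10 CPM or more. That call depends on the scaling, with a log2 ratio of 1.04 on TMM-scaled totals and 0.94 on library totals. Chgb, Scg2 and Chga were thus higher in replicate 2, while Syt4 (log2 ratio -0.13) was lower, as were 2 genes of the list.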

How the data were processed

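The deposited files hold raw counts per gene symbol, 1 file per library. The submitters' processing notes name the aligner STAR 2.0.0e, the counter HTSeq and the mm10 build. Annotation and strand setting: not given in the sources used here, so sense and antisense reads at one place cannot be told apart. The summary lines of HTSeq and the empty line unknown were left out, so that 64.9% (replicate 2) and 65.0% (replicate 1) of all counts were used. CPM was computed from these totals. Log2 ratios used edgeR 4.0.16 (TMM, prior count 2), with DESeq2 1.42.0 size factors as an alternative. Exon and coding lengths are unions over GENCODE M21 transcripts (GRCm38). Exons of 3 members share bases with antisense or other noncoding GENCODE genes that have no line in the files: Syt4 (14.5% of exon bases), Syt7 (5.13%) and Syt16 (2.00%). Promoter windows are RefSeq's. Protein sequences were not used here. Counting intervals are exact (Clopper-Pearson or Poisson) and say nothing of amplification, as no molecular identifiers are recorded. The spread between the libraries may be partly technical. Members and gene lists were chosen with earlier results of these data known. Genes named from a list are up to the 3 highest and the lowest by mean CPM, besides markers, all synaptotagmins, and Arc and Homer1.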

Additional observations from a re-analysis of the deposited data

Results flagged for a closer look

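With 2 libraries in 1 group, neither outlying samples nor effects that differ between groups can be looked for. Counts outside the gene lines were noted because no comparison used them. In replicate 2, 17.0% of all counts fell on no annotated feature, 2.56% on several genes at once and 15.5% on non-unique alignments. In replicate 1 the shares were 16.7%, 2.61% and 15.7%.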

How the results depend on the processing

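No paired analysis was possible because the series has 1 group. Levels, the members detected, the member median and the order per length were recomputed with TMM-scaled totals, DESeq2 size factors, totals without Rn45s and Lars2, and without each replicate in turn. The number detected stayed at 9 in all of these and with a threshold of CPM 10, and was 10 with any count in both libraries. Without replicate 1 the member median was 84.6 CPM and without replicate 2 it was 107 CPM. All 10 members kept their place in the order per kb of exon under the other totals and without replicate 1. Without replicate 2, 8 did, since Syt3 passed Syt16, and with coding length 7 did. With library totals alone, DESeq2 size factors, a prior count of 0.5 or the fit on length and GC content, 1 member was past 2-fold. The member whose ratio changed sign was Syt7, at 0.0049 after the fit on length and GC content (chosen after the data were seen), from -0.05. Over all alternatives, 92 values of single members and 31 of the family stayed within the allowance, 5 of single members moved past it and 1 reversed. The allowance was 1.5 times for a count or an order, the SD between libraries for a level or the member median (15.8 CPM), and 0.12 for a log2 ratio, the median absolute deviation over the members. Some of these values could not leave it, so their number is no measure of stability. Dropping 1 library always moves a level by less than that SD. Keeping only members at 10 CPM or more, or changing the background genes, leaves the ratio of each member as it was. Over the 19219 genes with a count in either library, 23.3% were past 2-fold. Depth limits Syt2, Syt9 and Syt15, whose counts were 20 or fewer in each library, and precision elsewhere is limited by having 2 libraries.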

Other observations

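The wider set of relatives with C2 domains or related to proteins that have them, 13 genes in all, was uneven. Of these, 8 were detected, beside 38.1% of all symbols, and the median over the 13 was 3.95 CPM. Rph3a, which encodes rabphilin, a Rab3 effector on synaptic vesicles, was at 443 CPM in replicate 2, against 654 CPM in replicate 1. Per kb of exon its levels were 95.5 and 141, above those of Syt1 in both libraries, but per kb of coding sequence they were 217 and 320, below the 424 and 525 of Syt1. Doc2b, a high-affinity calcium sensor of spontaneous release, was at 162 and 177 CPM, and Esyt2, which tethers the endoplasmic reticulum to the plasma membrane, at 38.9 and 44.4 CPM. Sytl3 and Sytl4, which encode Rab27 effectors, had 0 counts in both libraries. Of the 4 whose mean was 10 CPM or more, all had a ratio of replicate 2 to replicate 1 below 0, beside 47.2% of genes at that level. None was past 2-fold, beside 3.19% of those genes. Esyt3, singled out after its values were seen, stood at 33 counts (1.01 CPM) in replicate 2, against 173 counts (5.53 CPM) in replicate 1.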
